A study of Mus musculus with 10 samples.

Results

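Skeletal muscle genes were followed here in tumors of 4T1 cells, a mouse triple-negative breast carcinoma line, grown under the skin of the flank in female BALB/c mice. The members are 34 genes that encode contractile proteins, calcium-handling proteins and energy enzymes of muscle fibers, and they were found by gene name in a table of 34449 genes, in which each occurs once. Of them 8 lie on chromosome 7, among them Ckm and Mylpf, and 5 on chromosome 11, among them Eno3 and 3 myosin heavy chain genes. RNA of whole tumors was sequenced in 5 libraries named control (C1 to C5) and 5 named therapy (T1 to T5), with mice listed as 9 weeks old. Therapy stands for BC@Z-M + L, in which a membrane-coated nanoparticle that carries the dye BN-O and the vascular-disrupting drug CA4P is injected intravenously and the tumor is later lit with a near-infrared laser. The labels do not say what the control tumors received. All groups share the host strain and the tumor line, and no transgene or deletion is named. Whether 1 mouse gave 1 library is not stated, and p-values here reflect only how libraries scatter, which may be technical.

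A skeletal muscle fiber contracts when myosin heads of the thick filament pull on actin of the thin filament. Calcium released from the sarcoplasmic reticulum binds to troponin C, and troponin I and troponin T then let tropomyosin move off the actin sites. Z-discs anchor the thin filaments, and phosphocreatine and glycogen supply ATP for short bursts of work. 4T1 cells are of mammary epithelial origin, and skeletal muscle in mice also lies directly beneath the skin, in the thin sheet of the panniculus carnosus and in the body wall of the flank.

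Muscle RNA was present in very unequal amounts between libraries, and the inequality crossed the groups. Most members were highest in T3 and T2, then in C5, intermediate in T5, C3, C1 and T1, and at or near 0 in C4, T4 and C2. Values are given as FPKM, a count of sequenced fragments divided by transcript length and by library size, which makes levels of different genes comparable per length. Estimated counts summed to between 53411182 and 65263003 per control library and between 53446143 and 77510631 per therapy library. Housekeeping transcripts summed to 6472 to 7242 FPKM in control and 5716 to 6754 in therapy libraries, and the tumor-cell keratin gene Krt8 lay between 593 and 1410.5 FPKM, so tumor-cell transcripts were abundant in every library. In a bulk sample fewer cells of a type and less RNA per cell cannot be told apart.

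The letters upstream of the gene start are shown for 4 members, because muscle genes of the thin filament, the thick filament and the phosphocreatine system moved together from library to library while Eno3 did not. The sequences are the 250 bases before the start in RefSeq on the build GRCm38.p6, each written 5′ to 3′ on the gene's strand. Capitals mark CAGCTG, the form of the E-box that myogenic factors such as MyoD are known to bind, the letters TATAAA, the MEF2 site and the CArG box bound by serum response factor.
Acta1, chr8:123894776-123895025, minus strand: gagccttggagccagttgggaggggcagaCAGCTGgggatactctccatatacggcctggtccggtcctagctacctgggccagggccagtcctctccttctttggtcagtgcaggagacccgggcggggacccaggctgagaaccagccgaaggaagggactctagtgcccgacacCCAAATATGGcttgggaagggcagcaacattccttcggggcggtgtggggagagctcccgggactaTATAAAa
Ckm, chr7:19410844-19411093, plus strand: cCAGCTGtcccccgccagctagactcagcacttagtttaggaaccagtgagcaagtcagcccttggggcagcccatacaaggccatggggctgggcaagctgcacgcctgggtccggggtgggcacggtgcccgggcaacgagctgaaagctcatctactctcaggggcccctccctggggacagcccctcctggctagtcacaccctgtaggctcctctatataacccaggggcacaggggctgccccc
Mylpf, chr7:127211358-127211607, plus strand: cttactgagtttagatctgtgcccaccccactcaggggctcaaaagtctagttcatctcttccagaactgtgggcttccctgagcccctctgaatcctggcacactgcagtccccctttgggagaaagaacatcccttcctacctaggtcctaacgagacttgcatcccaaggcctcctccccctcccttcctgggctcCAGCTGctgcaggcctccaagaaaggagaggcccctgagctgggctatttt
Eno3, chr11:70656926-70657175, plus strand: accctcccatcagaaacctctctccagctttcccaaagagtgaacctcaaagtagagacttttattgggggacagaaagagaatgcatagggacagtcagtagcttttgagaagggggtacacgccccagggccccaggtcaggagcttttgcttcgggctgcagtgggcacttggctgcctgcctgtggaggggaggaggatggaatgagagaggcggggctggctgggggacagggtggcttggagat

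The windows of Acta1, Ckm and Mylpf each held 1 CAGCTG, which began 221, 249 and 51 bases before the start, respectively. Acta1 also held 1 CArG box, beginning 73 bases before the start, and TATAAA beginning 7 bases before it. The window of Eno3 held none of the marked motifs and 1 E-box of the general form CANNTG, the pattern that includes CAGCTG. Promoters were matched for 27 of the 34 members, 32 windows in all. Searched on both strands, CAGCTG was in 15 of the 32 windows (46.9%), against 13.0% of 32851 windows of the same length over all genes. CANNTG was in 87.5% against 66.2%, the MEF2 site in 18.8% against 2.92%, the CArG box in 6.25% against 1.47% and TATAAA in 15.6% against 12.4%. Among members with a promoter, CAGCTG was found for 10 of the 18 whose level had a correlation above 0.9 with the mean of the other members, and for 3 of the other 9. Followers such as Tnnc2, Mybpc2 and Actn2 lacked it and Ckmt2 held it, so the 4 windows shown do not stand for all members. A match describes the letters of a window and says nothing of whether a factor binds there.

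Of the thin filament genes, Acta1, which encodes skeletal alpha-actin, was the most abundant member after Eno3 on average. Its FPKM was 5.61 in C1, 0.199 in C2, 9.65 in C3, 0.232 in C4 and 27.9 in C5. In the therapy libraries it was 5.28 in T1, 51.0 in T2, 53.5 in T3, 0.293 in T4 and 13.4 in T5. T2 and T3 stood above every other library, while the remaining therapy values lay within the control range. The highest level was 269 times the lowest. The estimated counts behind these values ran from 22 in C2 to 5460 in T2. Of the 50-base stretches of the Acta1 transcript, 2.22% also occurred in transcripts of other genes, so its reads could largely be placed.

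Tnnc2, the fast-fiber troponin C that binds calcium, was at an FPKM of 0.709, 0.0487, 1.11, 0 and 3.53 in C1 to C5. It was at 0.730, 6.41, 6.27, 0.0119 and 1.18 in T1 to T5. The order of the libraries was close to that of Acta1, with C5 again the highest control and C4, T4 and C2 the lowest libraries. Exons of Tnnc2 overlap those of Ube2c on the opposite strand, and reads of such a pair cannot be assigned without strand information. Neb, the giant protein that runs along the thin filament, ranged from 0.0299 in C4 to 0.440 in T3.

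Tnni2 and Tnnc1 did not share this order, and Tnnt3 shared it only in part. Tnni2, the fast-fiber troponin I, was at 5.31, 10.4, 7.86, 12.5 and 9.52 FPKM in C1 to C5 and at 7.31, 7.96, 11.9, 9.06 and 7.35 in T1 to T5. Its highest library was C4, in which Acta1 and Tnnc2 were at or near 0. Tnnt3, the fast-fiber troponin T, was between 3.41 (C4) and 7.09 (C5) in control and between 1.97 (T4) and 9.09 (T3) in therapy libraries. It was at 6.92 in C2 and 5.48 in T2, and its correlation with the mean of the other members was 0.63. Tnnc1, the troponin C of slow fibers and heart, stayed between 0.786 and 1.44 in all libraries. The slow-fiber genes Tnnt1 and Tnni1 stayed below 1 FPKM, at no more than 0.708 and 0.420, with T2 the highest library for both. For Tnni1 the next were T3 (0.370) and C5 (0.210), as for the other followers.

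**Figure D1:**
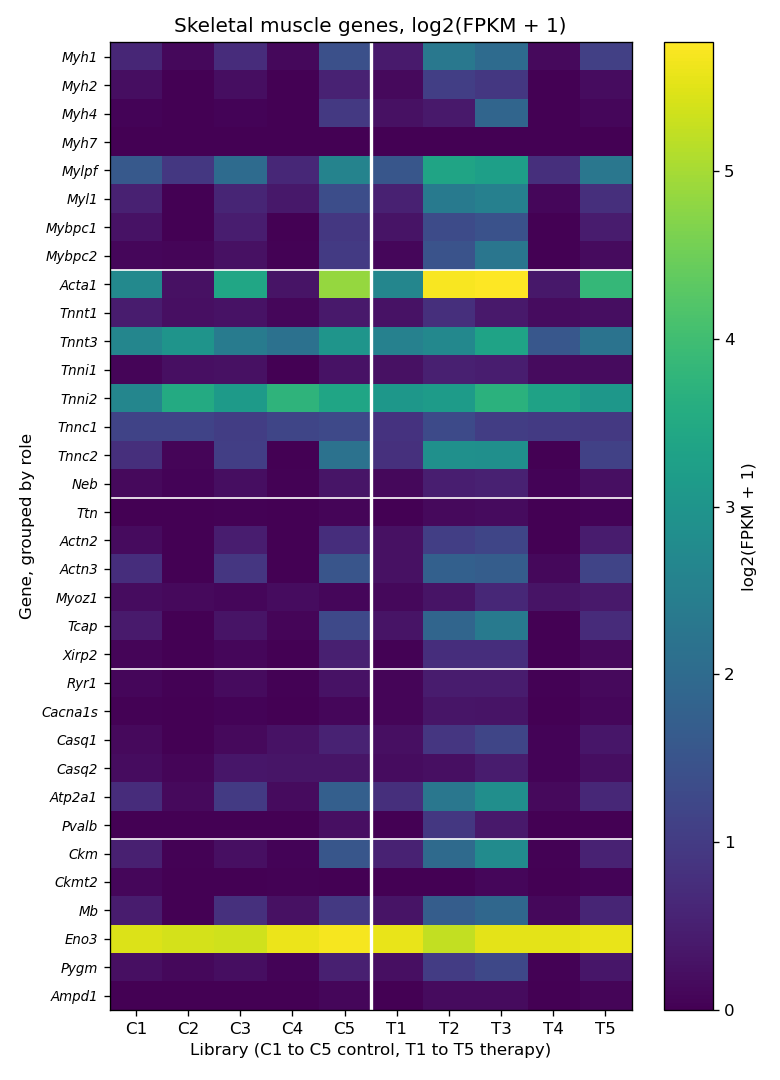
Level of each of the 34 members (rows, grouped by role from thick filament at the top to energy supply at the bottom) in each library (columns), as log2(FPKM + 1) on the color scale. T2, T3 and C5 are the bright columns for most rows, and C2, C4 and T4 the dark ones. Eno3 (36.9 to 50.5 FPKM), Tnni2 and Tnnc1 are above 0 in every library and do not follow that order. Tnnt3 (1.97 to 9.09) is also above 0 in every library and follows it only in part.

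Thick filament genes followed Acta1. Mylpf, the fast-fiber regulatory myosin light chain, was at 2.04, 0.921, 3.02, 0.570 and 5.02 FPKM in C1 to C5 and at 1.93, 9.27, 8.53, 0.715 and 3.91 in T1 to T5. T2 and T3 were above all other libraries, and C2, C4 and T4 were the only libraries below 1. Myl1, the essential light chain, reached 4.19 in T2 and 4.74 in T3, was 1.57 in C5 and was listed at 0 in C2. Of the 50-base stretches of Myl1, 23.4% were shared, mostly with Mylf-ps, so its level is uncertain. The myosin-binding protein C genes Mybpc1, known from slow fibers, and Mybpc2, known from fast fibers, peaked in T3 at 1.75 and 3.79, with 0.924 and 0.961 in C5.

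The myosin heavy chain genes were those of fast fibers. Myh1, which encodes the type IIX chain, was at 0.541, 0.0889, 0.671, 0.0972 and 1.66 FPKM in C1 to C5 and at 0.343, 3.93, 3.02, 0.106 and 1.14 in T1 to T5. Myh2, the type IIA chain, had its highest levels in T2 (1.09) and T3 (0.920), and Myh4, the type IIB chain, in T3 (2.66) and C5 (0.929). Myh7, the heavy chain of slow fibers and heart, reached no more than 0.0145 FPKM in any library. Slow heavy chain transcripts were thus at or near 0 in all libraries, those rich in muscle RNA included.

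Libraries rich in muscle RNA differed in which fast chain they held. In T2, Myh1 made up 73.6%, Myh2 20.4% and Myh4 5.99% of the summed FPKM of the 3 genes, while in T3 the shares were 45.8%, 13.9% and 40.3%. C5 (30.3% Myh4) and T1 (29.7%) were on the side of T3, and C1 (6.06%), C3 (4.19%) and T5 (4.87%) on the side of T2. C2, C4 and T4 had summed levels of no more than 0.115 FPKM, too low for shares to be read. These shares have no replicate, since each is of 1 library. Of the 50-base stretches, 26.7% of Myh1, 26.9% of Myh2 and 18.9% of Myh4 are shared with other genes, mainly within this family, so the split between them is uncertain.

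**Figure D2:**
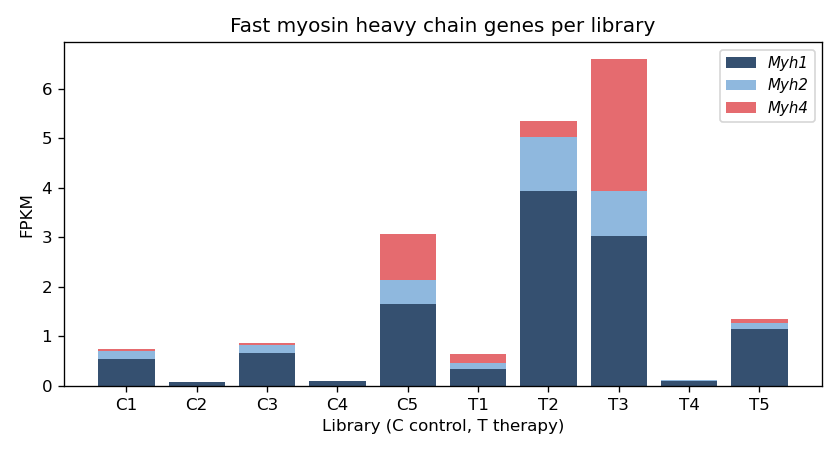
FPKM of the fast myosin heavy chain genes Myh1, Myh2 and Myh4, stacked for each control (C) and therapy (T) library. T3 and T2 have the tallest bars (6.60 and 5.34 summed), and Myh4 makes up much of T3 and C5 and little of T2.

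Most Z-disc and elastic filament genes showed the same libraries. Actn3, the alpha-actinin of fast fibers, was at 0.696, 0, 0.877, 0 and 1.89 FPKM in C1 to C5 and at 0.199, 2.41, 2.23, 0.0832 and 1.27 in T1 to T5. It was listed at 0 in C2 and C4, and C5 came next after T2 and T3. Actn2 reached 1.31 in T3, and Tcap, which caps titin at the Z-disc, 4.10 in T3 and 1.43 in C5. Xirp2, an actin-binding repeat protein, did not exceed 0.690. Ttn, which encodes the titin spring, was at 0.00136 to 0.128, low per length but with the same highest libraries. Myoz1, a calcineurin-binding Z-disc protein, did not follow that order. It was at 0.0659 to 0.148 in control and 0.0982 to 0.565 in therapy libraries. C5 (0.0659) was its lowest library of all, and T4 (0.227) lay above every control library.

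Among genes of calcium and excitation, Atp2a1, the calcium pump SERCA1 of fast fibers, was at 0.670, 0.103, 0.960, 0.123 and 2.33 FPKM in C1 to C5. It was at 0.717, 3.91, 6.23, 0.103 and 0.554 in T1 to T5, so that T1 and T5 lay below C3. Exons of Atp2a1 and of Rabep2 overlap on opposite strands. Casq1, the calcium store protein calsequestrin of fast fibers, peaked in T3 (1.29) and T2 (0.882). Ryr1, the calcium release channel, and Cacna1s, the voltage sensor that opens it, reached 0.366 and 0.254. Pvalb, the fast-fiber calcium buffer parvalbumin, was listed at 0 in 7 libraries and was 0.172 in C5, 0.923 in T2 and 0.317 in T3. Casq2, the calsequestrin of heart and slow fibers, stayed between 0.0439 and 0.364 without that order.

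Energy genes fell into followers and non-followers. Ckm, muscle creatine kinase, was at 0.415, 0.0228, 0.174, 0.0461 and 1.92 FPKM in C1 to C5 and at 0.463, 2.98, 5.86, 0.0187 and 0.472 in T1 to T5. T3 was the highest and T4 the lowest library, 313 times apart. The estimated counts behind them were 1009 and 4, so this ratio rests on a value near the floor. Mb, the oxygen-binding myoglobin, reached 2.27 in T2 and 2.80 in T3, and Pygm, the glycogen phosphorylase of muscle, 1.04 and 1.36. Ampd1, muscle AMP deaminase, was 0.124 and 0.126 in T2 and T3 and no more than 0.0654 elsewhere. Ckmt2, the mitochondrial creatine kinase of striated muscle, was listed at 0 in 6 libraries and was at most 0.0790.

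Eno3, the beta-enolase of muscle, was the most abundant member and the least variable. It was at 43.3, 41.1, 40.0, 47.2 and 50.5 FPKM in C1 to C5 and at 47.0, 36.9, 45.4, 45.1 and 46.6 in T1 to T5. The group ranges overlapped, the highest level was 1.37 times the lowest, and T2, rich in Acta1, had the lowest value. Eno3, Tnni2, Tnnt3 and Tnnc1 together summed to between 51.8 and 68.6 FPKM in every library, while the other 30 members summed to between 2.11 (C2) and 114 (T3). A sum over all 34 therefore hides most of the difference between libraries.

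**Figure D3:**
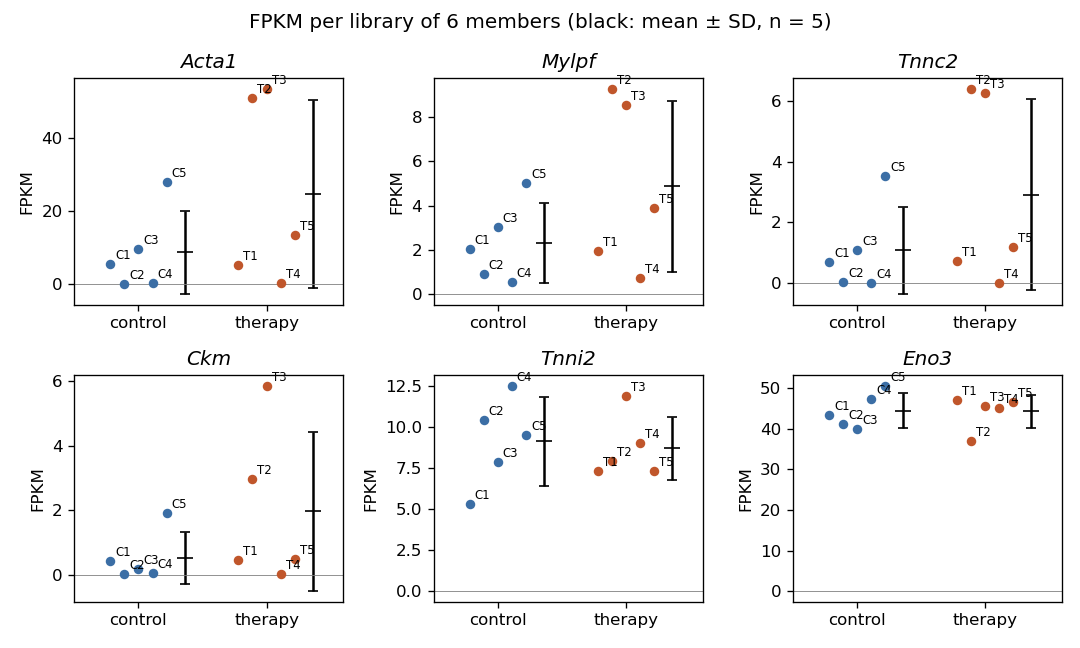
FPKM of 6 members in the control (blue) and therapy (orange) libraries, with the mean and SD of each group in black (n = 5). For Acta1, Mylpf, Tnnc2 and Ckm the libraries T2 and T3 lie above all others and C5 is the highest control, while Tnni2 and Eno3 show no such order.

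Counted over members, T2 and T3 were the 2 highest libraries for 24 of the 34. Over all 33285 genes with any FPKM this held for 3.13%. C5, T2 and T3 were the 3 highest for 25 members, against 0.925% of all genes. C2, C4 and T4 were the 3 lowest, strictly below all others, for 21 members, against 1.58% of all genes. The correlation of log2(FPKM + 1) of a member with the mean of the other members, over the 10 libraries, was above 0.9 for 22 members, between 0.5 and 0.9 for 7 and below 0.5 for 5, namely Eno3, Myh7, Tnni2, Ckmt2 and Tnnc1. The sets of libraries were picked after these same values were seen, so shares above those of all genes follow from that choice. These values describe the same 10 libraries and are a description only.

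By the summed FPKM of the 30 members other than Eno3, Tnni2, Tnnt3 and Tnnc1, the control libraries were at 13.8 (C1), 2.11 (C2), 20.5 (C3), 2.48 (C4) and 55.2 (C5). The therapy libraries were at 12.6 (T1), 101 (T2), 114 (T3), 2.21 (T4) and 26.7 (T5). Each group thus held libraries with little muscle RNA and libraries with much, and T2 and T3 were the only therapy libraries above the highest control library. All 34 members made up 0.0245% ± 0.00843 of the FPKM of a control library and 0.0354% ± 0.0179 of a therapy library (SD, n = 5). Even in T3 the share was 0.0595%.

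The comparison of therapy with control asks whether the treatment changed these genes. No member passed the test. The limma test was run on log2(FPKM + 1) for 12802 genes that averaged 1 FPKM or more over all libraries. In it none of the 11 members tested and none of all genes had a Benjamini-Hochberg adjusted p under 0.05, a background of 0%. Ckm, Myl1, Myh1 and Atp2a1 averaged only 0.517, 0.566, 0.612 and 0.837 FPKM in control. They thus passed the filter only through the therapy libraries, and their differences are a description. Without adjustment p was under 0.05 for 323 genes (2.52%) and for 0 of the 11 members. edgeR's quasi-likelihood test on the estimated counts called 0 of 18668 genes, again 0%, and 0 of the 30 members it tested. Its unadjusted p was under 0.05 for 546 genes (2.92%) and 1 member, Myoz1. DESeq2 called 6 of 26426 genes (0.0227%), none of them a member, and gave an unadjusted p under 0.05 for 862 of 32880 genes (2.62%), among them the members Myoz1 and Pygm.

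Acta1 was 1.36 ± 1.13 (SE) higher in therapy on the log2(FPKM + 1) scale, with an adjusted p of 0.997 in limma. The means were 8.72 ± 11.4 FPKM in control and 24.7 ± 25.6 in therapy libraries (SD, n = 5), so the spread within each group was larger than its mean. Tnnc2 differed by 0.72 ± 0.59, Ckm by 0.71 ± 0.50, Mylpf by 0.69 ± 0.51, Myl1 by 0.69 ± 0.46, Atp2a1 by 0.59 ± 0.51 and Myh1 by 0.59 ± 0.42 on the same scale, none past the test. The log2 fold changes of edgeR, fitted to the estimated counts with no added FPKM of 1, were larger, at 1.53 for Acta1, 1.46 for Tnnc2, 1.94 for Ckm, 1.09 for Mylpf, 1.85 for Myl1, 1.48 for Atp2a1 and 1.51 for Myh1, also none past the test. Leaving out 1 library moved the limma value of Acta1 between 0.83 (without T3) and 2.18 (without T4), and that of Ckm between 0.31 (without T3) and 0.99 (without T4). Eno3 (-0.0067 ± 0.10), Tnni2 (-0.034 ± 0.20), Tnnt3 (-0.17 ± 0.29) and Tnnc1 (-0.15 ± 0.11) were slightly below control. The sign for Eno3 turned with TPM and median-ratio scaling, that for Tnni2 with TPM scaling. Among members under the filter, Myoz1 had the means 0.107 ± 0.0354 in control and 0.286 ± 0.173 in therapy libraries.

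By sign alone, 28 of the 34 members had a higher mean of log2(FPKM + 1) in therapy, against 51.6% of all genes with any FPKM. The median difference over the members was 0.25, and over all those genes 0.0011. For no member did the groups fail to overlap, in either direction. Of all genes 0.156% had every therapy library above every control library, and the opposite direction was not counted for them. The mean of log2(FPKM + 1) over the 34 members was 0.720 ± 0.302 in control and 1.02 ± 0.539 in therapy libraries (SD, n = 5), a difference of 0.30.

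The direction depended on which of the libraries rich in muscle RNA were kept. Without T2 and T3, chosen after their values were seen as the highest therapy libraries, 6 members were higher and 28 lower in therapy, against 44.8% of all genes higher, and the median difference was -0.056. A fall follows from that choice, since C5, the highest control library, was kept. Without C5 as well as T2 and T3, 24 members were higher and 9 lower, against 46.3% of all genes higher, and the median was 0.032. Without T2 alone 29 members were higher (47.9% of all genes) with a median of 0.15, and without T3 alone 27 (50.03%) with a median of 0.14. Without C5 alone 29 were higher (52.8%) with a median of 0.33. The difference in the mean over members was 0.18 without T2, 0.14 without T3, 0.45 without T4 and -0.077 without T2 and T3.

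**Figure D4:**
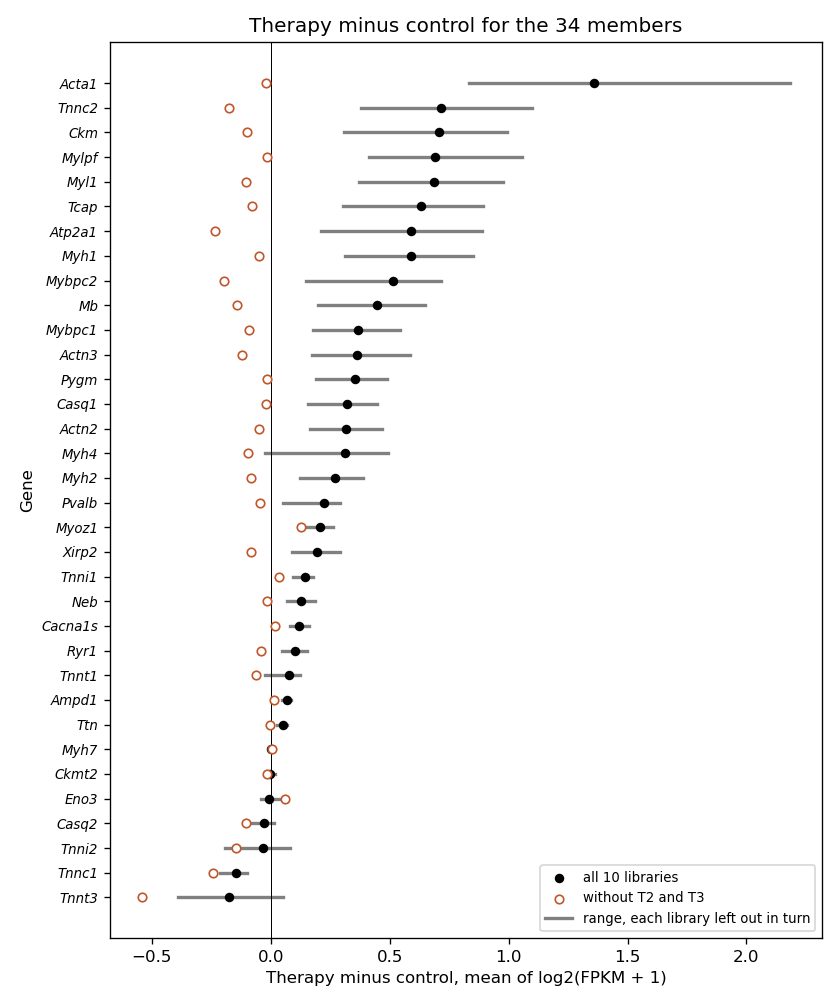
Difference between therapy and control in the mean of log2(FPKM + 1) for each of the 34 members, with all libraries (black), with each library left out in turn (grey range) and without T2 and T3 (open circles). With all libraries Acta1 is farthest to the right at 1.36, and without T2 and T3 it is at -0.020 and most members lie at or left of 0.

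Across the transcriptome the limma test called no gene with or without the muscle genes in the model, so the number of calls could not show an effect. When the mean over members was added to the limma model as a covariate, 0 of the 12791 other genes had an adjusted p under 0.05, and 126 had an unadjusted p under 0.05, against 323 of 12802 without it. With T2 and T3 left out 115 of all 12802 genes did. Both models leave fewer degrees of freedom than the model with all libraries and no covariate, and the part of this in the lower numbers was not tested. No principal component of the tested genes had an absolute correlation above 0.51 with the mean over members (10 libraries, a description). Components 1, 3 and 6, with 28.8%, 18.1% and 5.93% of the variance, had absolute correlations of 0.50, 0.51 and 0.50.

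Many other muscle genes, though not all, had the same highest libraries. Of 30 further genes of muscle structure, 30 had a higher mean in therapy (median difference 0.11), against 51.6% of all genes with any FPKM. T2 and T3 were the highest 2 libraries for 22, against 3.13% of all genes. The direction without T2 and T3 was not tested for these further genes. The highest level was under 1 FPKM for 20 of the 30. Only 5 of the 30 averaged 1 FPKM or more and entered the limma test. None of these had an adjusted p under 0.05, against 0% of all genes tested. The most abundant were Tpm3, a tropomyosin that is also made outside muscle, at 22.2 to 40.9 FPKM, and Tpm2, at 4.35 to 15.8. Des, the intermediate filament protein desmin, was at 0.690 in T4, 10.6 in T2 and 9.24 in T3.

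Of 21 further genes of calcium handling and membrane, 17 were higher and 4 lower in therapy, against 51.6% of all genes higher. T2 and T3 were on top for 9, against 3.13% of all genes. The most abundant, the acetylcholine receptor subunit gene Chrnb1 (33.9 to 69.5 FPKM) and the sarcoplasmic reticulum channel gene Tmem38a (2.33 to 4.54), had their highest levels in T4 and C2, where Acta1 was near 0. Of 21 further energy genes, 15 were higher, 5 lower and 1 listed at 0 throughout, and T2 and T3 were on top for 10, beside the same shares of all genes. The most abundant of them were Phka1, a phosphorylase kinase subunit (2.48 to 3.79), and Fbxo32, a muscle-wasting ubiquitin ligase gene (1.32 to 4.06). Only 2 genes of the first list and 4 of the second averaged 1 FPKM or more and entered the limma test. None of these had an adjusted p under 0.05, against 0% of all genes tested.

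Regulators of muscle formation were low. Of 12 genes of myogenic regulation and regeneration, 11 never reached 1 FPKM and 5 never reached 0.1. The exception was Myog, which encodes myogenin, at 1.21 in T3, 0.696 in T2, 0.351 in C5 and 0 in C2, C4 and T4. Mef2c, an activator of muscle genes that other cells also use, was at 0.270 to 0.789 without that order. The satellite cell genes Pax7 and Myf5 did not exceed 0.0266 and 0.0549. The embryonic and neonatal myosin genes Myh3 and Myh8 reached 0.0912 and 0.308, both in T3.

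Of 9 genes listed for heart, Myl7 and Nkx2-5 were at 0 in all libraries and Ryr2 and Myh6 at no more than 0.00326 and 0.0233 FPKM. Tnnt2 (8.11 to 26.8) and Nppb (2.01 to 24.1) were present in every library, and T2 and T3 were the 2 highest for neither. Myl4, an atrial myosin light chain gene, was highest in T3 (0.798) and T2 (0.686). The 8 smooth muscle genes had another order, though T2 and T3 were among their high libraries. Their summed FPKM was 170 in T1, 157 in T2 and 155 in T3, at most 130 in control libraries and 62.3 in T5. Acta2, the smooth muscle actin that activated fibroblasts also make, was at 13.7 to 78.8 FPKM and highest in T1, and Smtn, encoding smoothelin, at 24.5 to 50.2. Of the 8 smooth muscle genes T2 and T3 were the highest 2 for 0.

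Markers of skin and fat were high in other libraries than the muscle genes, T2 excepted. The summed FPKM of 10 keratinocyte genes was 49.9 in C1, 47.3 in C3 and 291 in T2, against 3.71 to 18.1 in the other libraries. Krt14 and Krt5, the keratins of basal skin cells, were at 157 and 92.7 in T2. T2 was thus rich in both muscle and skin transcripts, while C5 and T3, rich in muscle transcripts, had keratinocyte sums of 6.37 and 16.2. C2, C4 and T4, with little muscle RNA, also had low keratinocyte sums, at 4.77, 6.47 and 3.71. The summed FPKM of 8 adipocyte genes was highest in C4 (253) and T4 (52.4), with Cfd (complement factor D, also called adipsin) at 134 and 25.9 and Fabp4, a fatty acid carrier, at 49.2 and 11.5. These were libraries with little muscle RNA. The part of skin and fat in the muscle values was not tested.

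**Figure D5:**
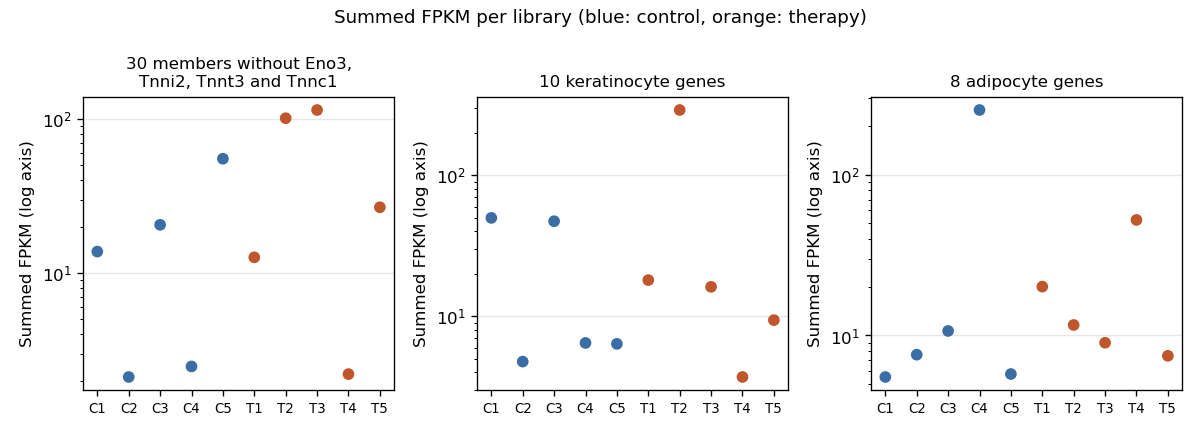
Summed FPKM on a log axis in each library for the 30 members other than Eno3, Tnni2, Tnnt3 and Tnnc1 (left), 10 keratinocyte genes (middle) and 8 adipocyte genes (right), control in blue and therapy in orange. Muscle peaks in T3 and T2, keratinocyte genes in T2 and adipocyte genes in C4 and T4.

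Nerve, blood and tumor-cell genes did not peak with the muscle genes. The 8 nerve and Schwann cell genes summed to 16.9 to 22.1 FPKM, with Cnp, a myelin enzyme gene (9.26 to 13.7), and Mbp, encoding myelin basic protein (3.30 to 6.28), the most abundant. The 6 erythroid genes summed to 166 to 670 FPKM in control and 110 to 258 in therapy libraries, with the hemoglobin genes Hbb-bs (44.3 to 276) and Hba-a1 (25.6 to 161) lowest in T2. The 8 epithelial genes summed to 1672 in T2, 1724 in T3 and 1889 in C5, the libraries richest in muscle RNA, and to 1966 to 2728 in the others. Their part in the muscle values was not tested, and Krt8 and Krt18 were the most abundant, Krt18 at 493 to 1134. T2 and T3 were the highest 2 libraries for none of the genes of these lists.

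Outside all lists, the 10 genes whose log2(FPKM + 1) was most like the mean over the 34 members were Tgif1 (Pearson r 0.92), Ankrd23 (0.92), P4ha2 (0.91), Dusp4 (0.90), Tnfaip2 (0.90), Inpp4a (0.89), Mustn1 (0.89), Bcorl1 (0.89), Ppox (0.88) and Chm (0.87), over 10 libraries that share one set of tumors. They were taken as the highest of 12791 genes, of which 37 had r above 0.8 and 37 below -0.8. Ankrd23, an ankyrin repeat protein gene known from striated muscle, was at 2.26 to 5.13 FPKM outside T2 and T3 and at 7.45 and 9.04 in them. Mustn1, a gene known from the musculoskeletal system, was at 3.25 in T2 and 3.09 in T3 and at 0.626 to 1.95 in the others. Tgif1, a homeobox repressor gene, only ranged from 19.5 to 30.1. Without T2 and T3 the 10 correlations were between 0.53 and 0.87.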

How the data were processed

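Tumor RNA of 5 control and 5 therapy libraries was analysed from 1 deposited table. The authors made its FPKM values and estimated counts with HISAT2 for alignment, StringTie and gffcompare for transcripts and expression, and FastQC for read quality, while cutadapt 1.9 is named in the submitters' processing notes. How the estimated counts were derived is not given in the sources used here. The labels name GRCm38 and triplicates, whereas the methods name a later annotation release and 5 libraries per group are listed. The library kit is not described as stranded.

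The main test was limma 3.58.1 (trended variance, Benjamini-Hochberg adjustment) on log2(FPKM + 1), for genes that averaged 1 FPKM or more. edgeR 4.0.16, DESeq2 1.42.0 (R 4.3.3) and an exact permutation test per gene were alternatives, as were other scalings, pseudocounts, filters and left-out libraries. Differences between means are on the log2(FPKM + 1) scale, which understates changes of low genes. A member's mean over all 34 is the mean of log2(FPKM + 1). The tests were checked on simulated data with known fold changes. In these data each gene varied on its own, unlike the muscle genes here, which moved together between libraries. Estimated counts pile up at 4 (1103 to 1397 genes per library), so 1 count need not be 1 read and no limit is derived from a count of 0. All 44 of 340 member values listed at 0 FPKM also had a count of 0. Exon overlaps and shared 50-base stretches came from the GRCm38 annotation. Overlap with a gene on the opposite strand was found for 16 members.

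The members and all gene lists were chosen with earlier results of these data known. Named are all 34 members, the 10 other genes most like their mean, and the 2 most abundant genes of each other list. Des, Myog, Pax7, Myf5, Myh3, Myh8, Myl7, Nkx2-5, Ryr2, Myh6 and Myl4 were added after their values were seen. Same-numbered control and therapy libraries deviated together for number 4 only, so the numbers were not used as pairs.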

Additional observations from a re-analysis of the deposited data

Results flagged for a closer look

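Each group of 5 values was searched for a library far from the others by Dixon's criterion, over the 34 members, their mean, their share and 11 other lists. Of 94 sets of 5 values 14 stood out, and chance gives about 1 in 20 for independent, normally distributed values. The sets share the same libraries and most members moved together, so the 14 cannot be set against that rate. In the control group C5 stood apart for Myh4 (0.929 FPKM, next 0.0456), Mybpc2 (0.961, next 0.198), Tcap (1.43, next 0.335), Xirp2 (0.429, next 0.0773), Pvalb (0.172, all others at 0), Ckm (1.92, next 0.415) and Ampd1 (0.0654, next 0.00929). In the therapy group T3 stood apart for Myh4 (2.66, next 0.320), and T2 was the low library for Eno3 (36.9, next 45.1). T2 and T3, being a pair, are not singled out by this criterion for the other members.

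The summed FPKM of the other energy genes of muscle was low in C2 (9.30, next 12.4). The keratinocyte sum was high in T2 (291, next 18.1), the adipocyte sum in C4 (253, next 10.7) and T4 (52.4, next 20.1), and the erythroid sum in C4 (670.04, next 293).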

How the results depend on the processing

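All counts of called genes and called members were 0 under every limma and edgeR setting tried, leave-one-out included (lowest 0, highest 0), and only DESeq2 called genes (6, none a member). The unadjusted count ranged from 181 (without T2) to 1220 (without T4) when each library was left out. The smallest adjusted p of a member in limma was 0.502 then (without T4), and 0.479 with array weights. Without T4 the unadjusted limma p was under 0.05 for 2 of the 11 members, Mylpf (0.041) and Myl1 (0.049), beside 1220 of all 12802 genes. The share of FPKM in members was 0.0109 percentage points higher in therapy, 0.00488 to 0.0151 with each library left out, and -0.0018 without T2 and T3. The difference in the mean over members was 0.14 to 0.45 with each library left out and 0.29 to 0.68 under the other summaries, scalings and pseudocount.

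With the replicate number as a block, limma and edgeR also called 0 genes and 0 members, and the mean of within-number differences in the mean over members was 0.30. Deviations of same-numbered libraries had correlations from -0.28 to 0.53, the highest for number 4. Only 1 of the 5 numbers matched best with its own number. Whether same-numbered libraries share more than a number cannot be told from this. The block changed no call. The median log2 fold change of the members edgeR tested was 1.43, against 0.59 for those limma tested. Of the latter, Ckm, Myl1, Myh1 and Atp2a1 passed the filter only through the therapy libraries.

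Without T2 and T3, chosen after seeing the data, signs turned for 8 of the 11 members tested and for 16 of the 23 under the filter (-0.20 to -0.0032). The 8 were Myh1 (-0.050), Mylpf (-0.016), Myl1 (-0.10), Acta1 (-0.020), Tnnc2 (-0.17), Atp2a1 (-0.23), Ckm (-0.098) and Eno3 (0.061), the last also without C5, T2 and T3 (0.11). Tnnt3 turned with array weights (0.13), and Tnni2 with array weights (0.0062) and TPM scaling (0.012). Eno3 turned with TPM (0.040) and median-ratio scaling (0.012), edgeR (0.013, with median-ratio factors 0.016, with a replicate block 0.011) and DESeq2 (0.013). With each library left out the ranges were -0.39 to 0.051 for Tnnt3, -0.19 to 0.082 for Tnni2 and -0.042 to 0.055 for Eno3. The cause was not tested, and none of these differences passed the test. Most members lie under 1 FPKM. Some of these rest on low estimated counts, such as Ampd1 with at most 32, while long transcripts such as Ttn reached 895.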
